A study of Drosophila melanogaster with 2 samples.

Results

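The cytosolic ribosome of Drosophila melanogaster, needed in every growing cell, is built from ribosomal RNA and a set of small proteins. The genes for these proteins were defined here as the protein-coding genes whose symbol starts with RpL or RpS followed by a digit, plus RpLP0, RpLP1 and RpLP2, in the Ensembl annotation. The rule gave 91 of the 13945 protein-coding genes on the 6 main chromosome arms, by symbol 53 for the large subunit and 38 for the small subunit. Ribosomal proteins with other kinds of symbol were not included, and the counts include 4 genes whose symbol ends in -like.

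Binding of the zinc finger transcription factor tiptop (tio), the paralog of teashirt, was mapped by chromatin immunoprecipitation and sequencing (ChIP-seq). Whole embryos of mixed sex, 4 to 24 h old, came from a stable transgenic fly line in which GFP is joined to the C-terminus of tio, and chromatin was sheared to 200 to 800 bp and pulled down through the GFP. There was 1 group with 2 biological replicates, and their control was not analysed here. Neither the promoter that drives the transgene nor the state of the endogenous tio gene is given in the sources used here. With whole embryos of mixed age, strong binding in few cells and weak binding in many cells cannot be told apart, and with 1 group no test between conditions was possible.

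Ribosomal protein genes are among the most actively transcribed genes of a cell, and the subunits are assembled from nearly equal numbers of most proteins. In Drosophila many of them start transcription at a pyrimidine-rich initiator called TCT, which replaces the usual initiator and lies in the same tract that controls translation of these mRNAs. Loss of a single copy of many of these genes gives the Minute phenotype of slow growth and short bristles.

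The deposited lists give regions of the dm6 genome, each with a summit (the position of strongest signal), a signal value of the authors' own, whose scaling no source states, and a q-value. Each replicate has a list of 30000 regions, and so has the pool of both, with background among them, and the list thresholded by irreproducible discovery rate (IDR) held 3793 peaks. All 3793 IDR summits were in the pooled list at the same position and with the same signal, so the IDR signal is a pooled value and cannot be set against replicate values. Read depth is unknown.

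Summit sequences of 6 ribosomal protein genes with high IDR signal are shown to let the sites be compared with the start sites that follow. RpL41 and RpL23 are not shown, although their strongest summits had a higher IDR signal than that of RpS21. Each is written 5′ to 3′ on the strand of the gene, from the Release 6 reference genome of RefSeq in dm6 coordinates. Windows hold 61 bases centred on the summit, or 30 bases where a longer one would have held more than 30 bases of annotated untranslated region. Capitals mark the core promoter element Motif 1 (GGTCACACT), the site of the factor M1BP, which was present in RpLP0 alone among these windows.
RpS27, chr3R:25247502-25247562, minus strand: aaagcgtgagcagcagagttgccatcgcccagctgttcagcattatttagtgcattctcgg
RpL7, chr2L:10201023-10201052, plus strand: gtgtgcacgcatttcgcagcactgaaagca
RpS20, chr3R:20822030-20822090, plus strand: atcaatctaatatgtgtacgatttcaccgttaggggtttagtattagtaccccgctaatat
RpS28b, chrX:9553929-9553989, plus strand: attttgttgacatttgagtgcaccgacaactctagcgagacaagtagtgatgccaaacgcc
RpLP0, chr3L:22076059-22076088, plus strand: cgaagcGGTCACACTgggtgccgccgccaa
RpS21, chr2L:2856027-2856087, plus strand: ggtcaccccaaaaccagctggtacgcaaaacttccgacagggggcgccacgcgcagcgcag

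The start sites of the same genes are shown because the TCT initiator is the sequence feature that most ribosomal protein genes share. RpL34b and RpL28 are added as the genes with no IDR peak in the span plus 1 kb upstream whose best replicate region there ranked highest. Each window holds 30 bases of the gene strand and begins 15 bp before an annotated transcription start site (TSS). Capitals mark the TCT core, searched on the gene strand within 15 bp of the TSS as TCTTTT or TCTTTC or CCTTTT or CCTTTC, with overlapping matches joined. For every gene here but RpS20, the start shown is one with a TCT core, so the cores seen in these windows follow from that choice. At RpS27, RpL7 and RpS21 it is not the TSS nearest the summit, from which the distances given gene by gene are measured.
RpS27, chr3R:25247458-25247487, minus strand: ctgcgatttaccccacttCCTTTTccgtgt
RpL7, chr2L:10201085-10201114, plus strand: gtatagcacgtttccggTCTTTCTTTCcct
RpS20, chr3R:20822166-20822195, plus strand: gacaccctgtaaaacttctcttcgttttca
RpS28b, chrX:9554608-9554637, plus strand: ctgtgccgataaccgctcaacttCCTTTTt
RpLP0, chr3L:22076077-22076106, plus strand: tgccgccgccaacttcacTCTTTCcgttct
RpS21, chr2L:2856096-2856125, plus strand: acgtccagctgtcattTCTTTCTCTTTTtc
RpL34b, chr3R:9401212-9401241, minus strand: gcgcgaacagggttgccaCCTTTCTTTCta
RpL28, chr3L:3222944-3222973, minus strand: tgtcgggctgccatattTCTTTCcttcttg

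The gene set was checked against this known feature. A TCT core lay at an annotated TSS of 77 of the 91 genes (84.6%), against 699 of all 13945 protein-coding genes (5.01%) and 2 of 73 genes for mitochondrial ribosomal proteins (2.74%), which have a separate ribosome. Of the 14 genes without it, 9 belong to sets of genes that share a symbol stem, called paralog sets here, such as RpL10Aa, RpS10a, RpS15Ab and RpS19b. Small nucleolar RNA genes, which guide modification of ribosomal RNA and often sit in introns of these genes, lay in the span of 28 ribosomal protein genes (30.8%), against 0.602% of all protein-coding genes.

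Tio IDR peaks lay at 24 ribosomal protein genes (26.4%), counting summits in the gene span plus 1 kb upstream, and these genes held 29 summits. The same count gave 16.2% of all protein-coding genes, and 8.72% of the 10266 protein-coding genes that are no longer than the longest ribosomal protein gene (4677 bp). The 8.72% of shorter genes is the closer background, because ribosomal protein genes are short, with a median span of 1318 bp against 2166 bp. Without the upstream 1 kb the direction turned, with 5 ribosomal protein genes (5.49%) against 9.29% of all protein-coding genes. That comparison was not matched for gene length, on which a count within the span depends. With a summit within 1 kb of an own TSS the count was also 24, against 12.6% of all protein-coding genes. That count differed in 2 genes: RpL34b entered with a summit at 903 bp after its start (signal 153), and RpS26 left, since its summit lay in its own 3 prime UTR, 1813 bp after the start (signal 90.2).

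The strongest site of the set was at RpS27, which encodes a small subunit protein. Its summit on 3R at 25247532, -18 bp from the TSS, had a signal of 544 in the IDR list, 295 in replicate 1 and 245 in replicate 2. It ranked 155 among the IDR peaks, well ahead of the next ribosomal protein gene. RpL7, a large subunit protein gene with a paralog, RpL7-like, had an IDR signal of 323 at 34 bp after its TSS, with 179 in replicate 1 and 143 in replicate 2. RpS20, one of the genes without a TCT core, had an IDR signal of 313 at -121 bp, with 148 in replicate 1 and 161 in replicate 2. Both lay well below RpS27 in each replicate, and their own order was not the same in both replicates.

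Among the other large subunit genes, RpL41, which encodes the shortest ribosomal protein, had an IDR signal of 288 at -87 bp, with 153 in replicate 1 and 125 in replicate 2. RpLP0, the base of the stalk that recruits translation factors, had an IDR signal of 270 at -18 bp, with 143 and 125 in replicates 1 and 2. RpL23 had summits at -316 bp (IDR signal 228, replicates 131 and 96.1) and at -114 bp (112, replicates 65.5 and 73). The stronger of these lay nearer to the start of CG13531 than to that of RpL23. RpL10Ab, the protein of the L1 stalk that moves with the exit-site tRNA, had an IDR signal of 181 at -303 bp, with 110 in replicate 1 and 66 in replicate 2, and this summit too was nearer to the starts of other genes, CG11597 and CG5946.

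The other large subunit genes had single summits close to their start. RpL30 had an IDR signal of 172 at -33 bp, with 88.3 and 83.2 in replicates 1 and 2. RpL8, whose protein lies next to the peptidyl transferase centre, had an IDR signal of 152 at -60 bp, with 65.8 and 94.2. RpL27 had an IDR signal of 118 at 26 bp after its TSS, with 37.1 in replicate 1 and 78.2 in replicate 2. RpL27 was the only matched summit of the set that differed by more than 2-fold between replicates (log2 of replicate 1 over 2, -1.08). RpL37A followed with an IDR signal of 112 at -30 bp (replicates 51 and 57.6), and RpL17, at the exit of the peptide tunnel, with 92.3 at -6 bp (replicates 50 and 44.6).

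Small subunit genes held most of the remaining summits. RpS28b, the TCT-carrying gene of a set of 3 paralogs, had a summit at -664 bp (IDR signal 284, replicates 131 and 157) that lay nearer to the start of l(1)G0320, and one at -38 bp (218, replicates 132 and 85). RpS21, first described in the fly as a gene whose loss overgrows the blood-forming organs, had an IDR signal of 220 at -13 bp, with 120 and 104 in replicates 1 and 2. RpS27A, which encodes a ubiquitin fused to a ribosomal protein, had an IDR signal of 205 at -76 bp, where the start of Ip259 is equally near. Its replicate 2 signal within 100 bp was 50.9, and a stronger replicate 2 region lay at -194 bp (92.6). Replicate 1 had no region in the span plus 1 kb upstream, so this site rests on unequal replicate support.

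RpS10b had an IDR signal of 174 at -20 bp, with 102 and 68.1 in replicates 1 and 2. RpS7 had summits at -111 bp (164, replicates 86.4 and 68) and -310 bp (88.9, replicates 52 and 37.7). RpS12, a sensor of cell competition between wild-type and Minute cells in the fly, had summits at -354 bp (137, with 72.1 in replicate 2 and no summit within 100 bp in replicate 1) and at -147 bp (120, replicates 80.7 and 40.4). RpS3A, the only member on chromosome 4, had summits at -82 bp (129, with 73.1 in replicate 1 and no summit within 100 bp in replicate 2) and at -302 bp (105, replicates 51.4 and 60.8). The unmatched replicate had its nearest summit 182 bp away at RpS12 and 157 bp away at RpS3A, so the closely spaced pairs were resolved unevenly between lists.

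Weaker sites of the small subunit included RpS23, near the decoding centre (136 at -20 bp, replicates 81.5 and 54.3), RpS15Aa (131 at 25 bp after the TSS, replicates 79.8 and 55.7) and RpS19a (97.5 at -111 bp, replicates 52 and 53.1). The human counterpart of RpS19a is mutated in Diamond-Blackfan anaemia. RpS26, the site in the 3 prime UTR, had 90.2 in the IDR list, 61.3 in replicate 1 and 32.7 in replicate 2. The IDR list itself begins at 87.5, so RpS26, RpL17 and the weaker RpS7 summit stood just inside it.

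**Figure D1:**
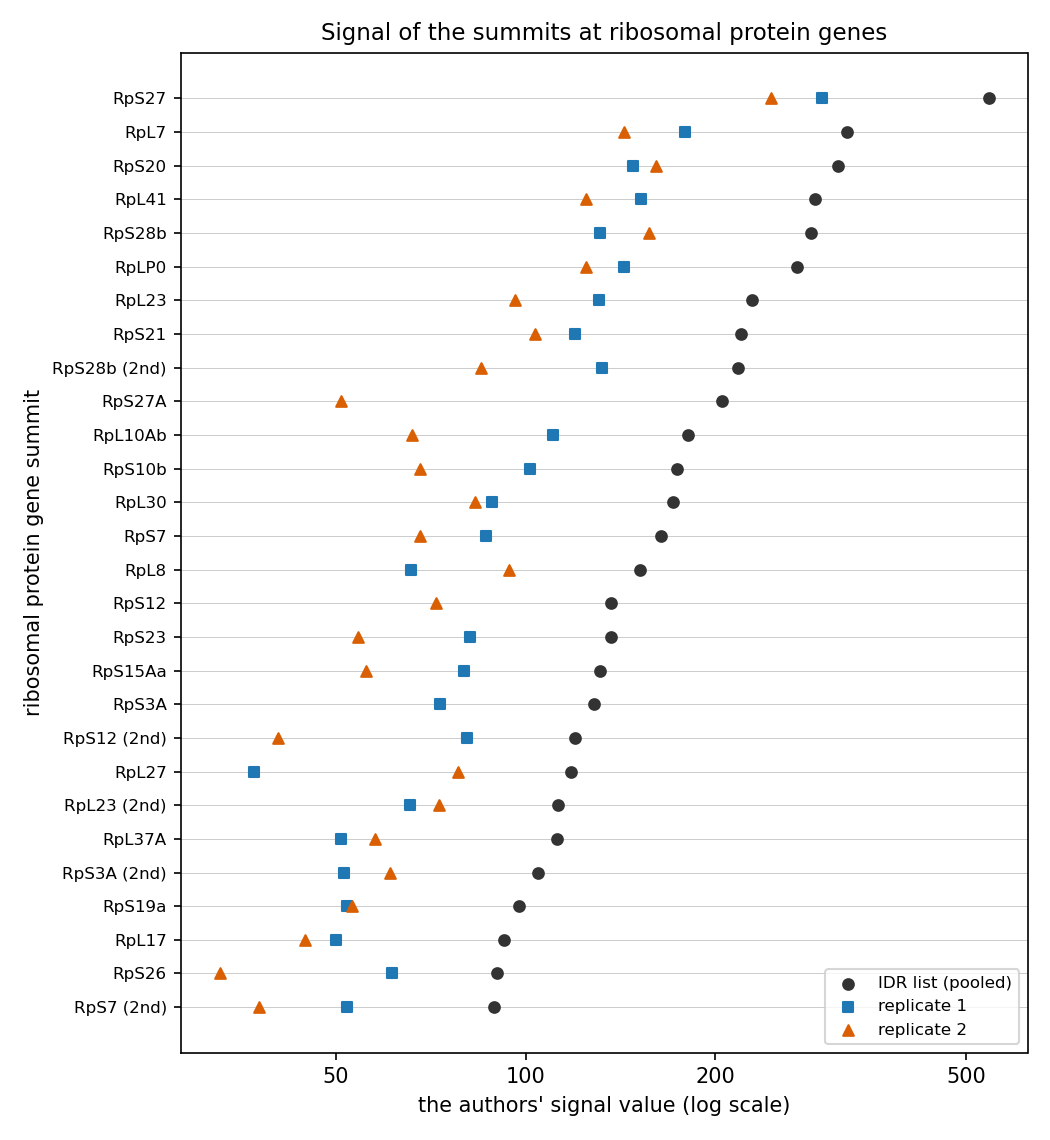
The authors' signal value (log scale) of 28 of the 29 summits at ribosomal protein genes in the IDR list (black circles), replicate 1 (blue squares) and replicate 2 (orange triangles); a missing symbol means no summit within 100 bp, and "2nd" marks the weaker summit of a gene. RpS27 has the highest value in each list. The IDR values are on another scale and are not to be set against the replicate values.

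Signals at ribosomal protein genes were moderate within the list. The 29 summits had a median IDR signal of 152, with a range of 88.9 to 544, against a median of 172 over the 1661 IDR summits at most 1 kb from a protein-coding start and 145 over all IDR peaks. Of the 29, 12 lay above the promoter median. Their q-values, the authors' own, ran from 0.000322 to 0.0241. For the 26 summits matched in both replicates, the log2 ratio of replicate 1 to replicate 2 had a median of 0.28 and an SD of 0.46 across summits, and 18 were higher in replicate 1. Over all 3504 matched IDR peaks the median was 0.16 and the SD 0.46, so at matched summits the replicates differed by about as much as elsewhere. Regions held by 1 replicate alone are left out of this ratio and are given below. Spearman's rho between the replicate signals of the 26 summits was 0.77, a description of summits that share both libraries.

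Summits at ribosomal protein genes sat close to the start of transcription, on its upstream side. Of the 29, 25 lay upstream of the nearest own TSS (86.2%), against 79% of the 1661 promoter summits, with a median position of -76 bp against -182 bp. Within 50 bp of the TSS lay 12 of the 29 (41.4%), against 83 of the 1661 promoter summits (5%). Within 200 bp the shares were 72.4% and 38.4%. The 12 closest include RpS27, RpL7, RpLP0, RpS21, RpS10b, RpS23 and RpL17. These distances are to the nearest of the annotated starts of a gene. At genes with a TCT core, 23 of 25 summits lay upstream of the TCT start, with a median of -76 bp, and 13 lay within 100 bp upstream of it. From the TCT start, RpS27 (-60 bp), RpL7 (-62 bp), RpS21 (-54 bp) and RpS23 (-69 bp) were no longer within 50 bp. RpLP0 (-18 bp) and RpS10b (-29 bp) were, and RpL17 has no TCT core.

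**Figure D2:**
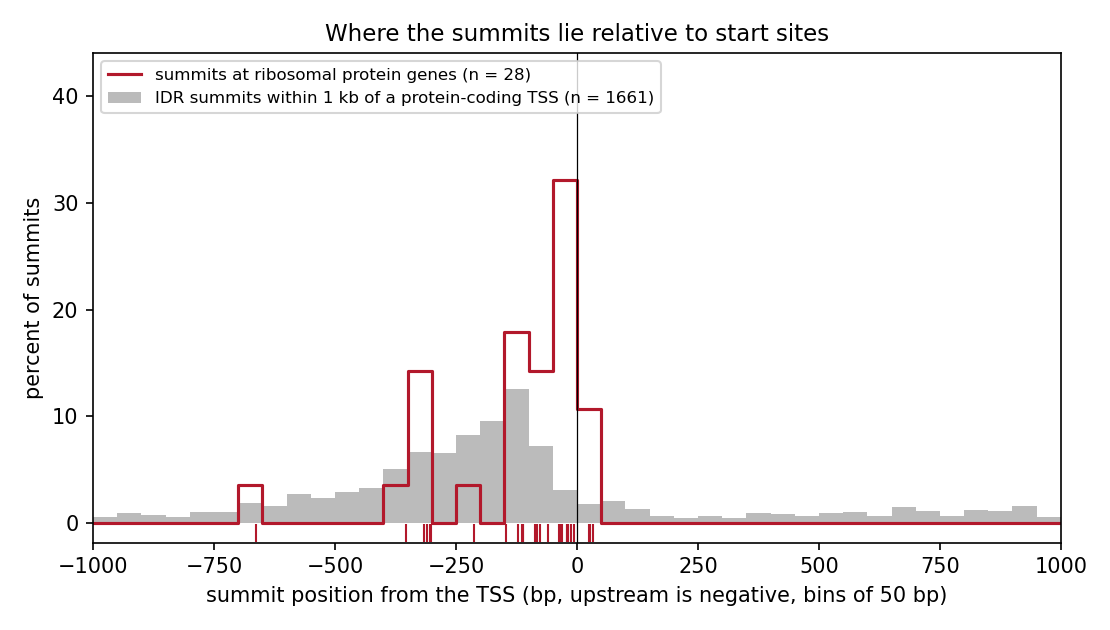
Percent of summits per 50 bp by position from the TSS, for all 1661 promoter summits of the IDR list (grey bars) and the summits at ribosomal protein genes (red line, with a tick per summit; the RpS26 summit at 1813 bp is off the axis). The ribosomal protein genes have their highest share in the bin just before the start, and the promoter summits have theirs 100 to 150 bp upstream.

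Neighbouring genes share many of these sites. Of the 29 summits, 20 also lay in the extended span of another protein-coding gene, and 25 had an own TSS as their nearest. No share over all promoter summits was set beside these counts, so they are not shown to be particular to ribosomal protein genes. A divergent protein-coding TSS within 1 kb upstream was present at 15 of the 24 genes with a peak (62.5%), at 39 of the 67 without (58.2%) and at 35.2% of all protein-coding genes, so a shared upstream region was about as common without a peak as with one.

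Small subunit genes held a peak in 14 of 38 cases (36.8%) and large subunit genes in 10 of 53 (18.9%), a difference that was not tested. With the top regions of replicate 1 alone, as many as there are IDR peaks, the shares were 16 of 38 (42.1%) and 14 of 53 (26.4%), and with those of replicate 2 alone 19 of 38 (50%) and 20 of 53 (37.7%), so the large subunit count was 2 times as high without replicate 1 and the gap was narrower. The median of the best IDR signal per gene was 151 for the small and 177 for the large subunit. In the arms with the most members, peaks were held by 6 of 19 genes on 2L, 3 of 20 on 2R, 5 of 14 on 3L, 4 of 23 on 3R and 5 of 14 on X. Genes of paralog sets had a peak in 6 of 25 cases (24%) and genes outside such sets in 18 of 66 (27.3%). Of the 12 sets, 6 had a peak at exactly 1 gene (RpL10Ab, RpL7, RpS10b, RpS15Aa, RpS19a and RpS28b) and the other 6 at none. No set had peaks at 2 genes. Near-identical paralogs can lose reads that map to both copies. The handling of such reads is not given in the sources used here, and its part in these counts was not tested.

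A TCT core was present at an annotated TSS of 21 of the 24 genes with a peak (87.5%) and of 56 of the 67 without (83.6%). With the 5 prime end of the gene alone the order turned, with 10 of 24 (41.7%) and 37 of 67 (55.2%), and neither difference was tested. RpL17, RpS12 and RpS20 were the genes with a peak that lacked it. Small nucleolar RNA genes lay in 7 of 24 spans with a peak (29.2%) and 21 of 67 without (31.3%).

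Several core promoter elements and other motifs differed in share between these summits and the 1661 promoter summits, which include summits at ribosomal protein genes. The comparison was not matched for distance to the TSS. Within 100 bp of a TSS lay 55.2% of the 29 summits and 14.2% of the promoter summits. Motifs were searched as plain letters on both strands within 100 bp of each summit, and matches of different motifs were allowed to overlap. The DNA replication-related element (DRE, TATCGATA), the site of DREF, occurred at 5 of 29 summits (17.2%; RpL27, RpL41, RpS10b, RpS15Aa and RpS7), against 2.65% of the 1661 promoter summits. Motif 1 occurred at 4 (13.8%; RpL37A, RpL7, RpLP0 and RpS23), against 0.843%. The GAGA sequence GAGAG was at 0 of the 29 summits, against 20% of the promoter summits, and the homeodomain core TAATTA at 3 (10.3%; RpL23, RpS12 and RpS20), against 20.7%. TATAAA was found at 44.8% and 41.4%, and the E-box CACGTG, the site of Myc, at 2 summits (6.9%) and 2.05%. Windows of 30 bases show 3 of these sites in place, with the motif in capitals (for RpL7 as its reverse complement).
RpL7, Motif 1, chr2L:10200978-10201007, plus strand: actccgcggccAGTGTGACCgtttggccga
RpS15Aa, DRE, chrX:13337695-13337724, minus strand: gtccggctaacTATCGATAggcacgttgag
RpS7, DRE, chr3R:30209348-30209377, minus strand: ctaaacgaaccTATCGATAtatattttcaa

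The elements were also counted in the promoters of ribosomal protein genes with and without a peak, differences that were not tested. In the window from 250 bp before to 50 bp after the 5 prime end of the gene, DRE was found at 7 of 24 genes with a peak (29.2%) and 21 of 67 without (31.3%), against 9.36% of all protein-coding genes. Motif 1 was found at 4 of 24 (16.7%) and 5 of 67 (7.46%), against 6.05%. GAGAG was found at 2 of 24 (8.33%) and 13 of 67 (19.4%), against 29.7%, and TAATTA at 25%, 26.9% and 20.4%. A match describes letters in the window and not binding of a factor.

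Base composition differed with position. The 100 bp on either side of the 29 summits held 38.2% ± 8.36 G+C (SD across summits), against 33.5% ± 6.34 at the 1661 promoter summits. The 12 summits within 50 bp of the TSS held 45% ± 4.57, the other 17 held 33.3% ± 6.89, and the 83 promoter summits within 50 bp of any TSS held 36.6% ± 6.7. Around the 5 prime ends, genes with a peak (42.6% ± 4.81, n = 24), genes without (40.7% ± 6.04, n = 67) and all protein-coding genes (41.6% ± 7.66) lay within 1 SD of each other.

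Of the 67 ribosomal protein genes without an IDR peak, 12 had a weaker region in the pooled list. The 6 strongest were RpL9 (pooled signal 86.7, replicates 41.4 and 42.1), RpL5 (85.8, replicates 42.7 and 42.3), RpL38 (78.5, replicates 33.6 and 48), RpL12 (75, 38.6 in replicate 2 and no region in replicate 1), RpL15 (74.1, replicates 40.9 and 45.3) and RpS9 (64.5, replicates 23.9 and 35.8). RpL5 belongs to the particle that carries the 5S ribosomal RNA, and RpL38 is known in the mouse for its effect on translation of Hox mRNAs. RpL9 and RpL5 stood just outside the IDR list, which begins at 87.5, and both replicates gave them nearly equal signals.

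Other genes without an IDR peak had strong regions in a replicate list and none in the pooled list. To compare lists, the 3793 regions of highest signal in each replicate were taken as its top regions, as many as there are IDR peaks. By this measure 30 ribosomal protein genes had a top region in replicate 1, against 16.9% of all protein-coding genes, and 39 in replicate 2, against 17.8%. In both replicates it was 24 genes, against 14.4%. With an IDR peak or a top region of either replicate it was 45 genes (49.5%), against 20.5%.

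The 3 genes without an IDR peak that were in the top of both replicates were RpS16, RpS5a and RpL19, and the pooled list held no region for any of them. RpS16 had a signal of 141 in replicate 1 (rank 751, at -103 bp) and 122 in replicate 2 (rank 809, at -111 bp). RpS5a, the broadly used copy of a pair whose other member RpS5b acts in the ovary, had 123 at -114 bp and 101.3 at -79 bp. RpL19, a classical Minute gene, had 99.6 at -25 bp and 78 at -27 bp. All 3 lay above the median of the matched IDR summits of this gene set in both replicates (83.9 in replicate 1 and 70.5 in replicate 2), and the replicate summits of RpL19 lay next to each other.

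In replicate 1 alone there were 5 genes of this kind, among them RpL34b, RpL28, RpL24 and RpS6. RpL34b had a signal of 210 (rank 334, at -67 bp) and RpL28 one of 207 (rank 354, at -52 bp), and neither had a region of replicate 2 or of the pooled list in the span plus 1 kb upstream. For RpL34b the pooled list held the summit at 903 bp after its start, beyond the end of the gene. Within the ribosomal protein genes, replicate 1 gave a higher value to RpS27 alone. RpL24 had 126 at 11 bp after its TSS, again with no region in replicate 2. RpS6, the target of the growth-controlling S6 kinase, had 74.5 in replicate 1 and 44.9 in replicate 2, where it ranked 3881 and so just missed the top regions.

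In replicate 2 alone there were 13 such genes. The highest were RpL23A (signal 158, rank 492, at -122 bp), RpL13A (148, rank 571, at -72 bp), RpL4 (129, at -69 bp) and RpL34a (124, at -171 bp), none of them with a region in replicate 1. RpL14 (116), RpS14a (110), RpS25 (108), RpL31 (102), RpL11 (88.5), RpS4 (80.1) and RpL13 (61) followed, likewise with no region in replicate 1. RpL11 is a partner of RpL5 in the 5S particle. RpL32, long used as a reference transcript in fly expression studies, had 74.7 in replicate 2 and 40.7 in replicate 1, and RpL38 was the only one of the 13 with a pooled region.

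These regions also lay at the promoters. The best top region of the genes without an IDR peak had a median position of -85 bp in replicate 1 (n = 8) and -89.5 bp in replicate 2 (n = 16), with 6 and 14 of them within 200 bp of an own TSS. In all, 20 of the 45 ribosomal protein genes with a top region in either replicate had no pooled region (44.4%), against 397 of 2827 protein-coding genes (14%) and 2 of 18 genes for mitochondrial ribosomal proteins (11.1%).

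**Figure D3:**
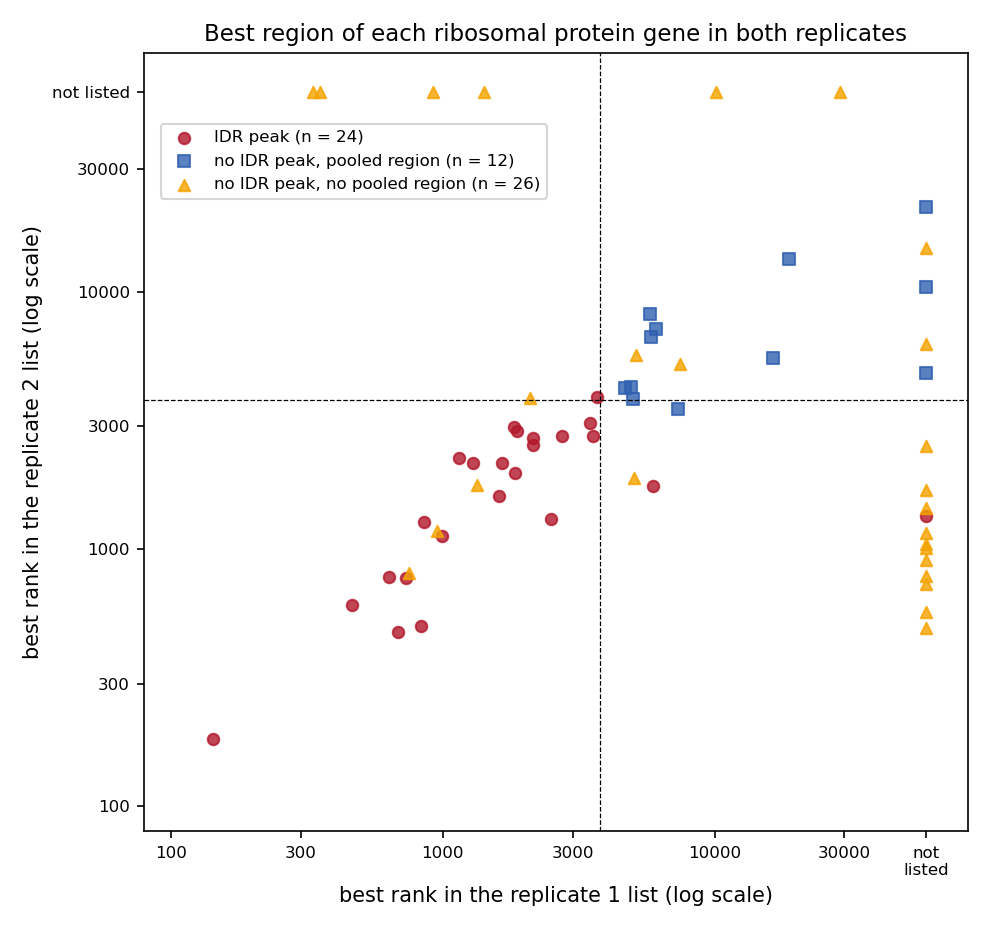
Best rank of ribosomal protein genes in the replicate 1 and replicate 2 lists (log scales), for genes with an IDR peak (red circles), with a pooled region but no IDR peak (blue squares) and with neither (orange triangles). Genes missing from 1 replicate list are drawn at "not listed", and genes missing from both are not drawn. Dashed lines mark rank 3793; orange genes reach ranks 334 in replicate 1 and 492 in replicate 2, among the red genes.

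Counted by region, the gap between lists was again wide at ribosomal protein genes. Of the top regions of replicate 1 at these genes, 8 of 35 had no pooled region within 500 bp (22.9%), against 4.14% of all its top regions. Of those of replicate 2, 17 of 43 had none (39.5%), against 7.22%. Nearness to a start site went along with this: of top regions within 200 bp of any protein-coding TSS, 11.2% in replicate 1 and 19.7% in replicate 2 had no pooled region. At ribosomal protein genes within 200 bp of an own TSS it was 6 of 26 (23.1%) and 14 of 34 (41.2%). At TCT starts of other genes it was 1 of 34 and 5 of 36, and at genes for mitochondrial ribosomal proteins 0 of 14 and 2 of 17. The replicates also differed from each other at ribosomal protein genes. Of the top regions of replicate 1 there, 4 of 35 had no region of replicate 2 within 500 bp (11.4%), against 3.01% of all its top regions. Of those of replicate 2, 15 of 43 had no region of replicate 1 (34.9%), against 6.83%. The part that the control library, the alignment or the peak calling had in these gaps was not tested.

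**Figure D4:**
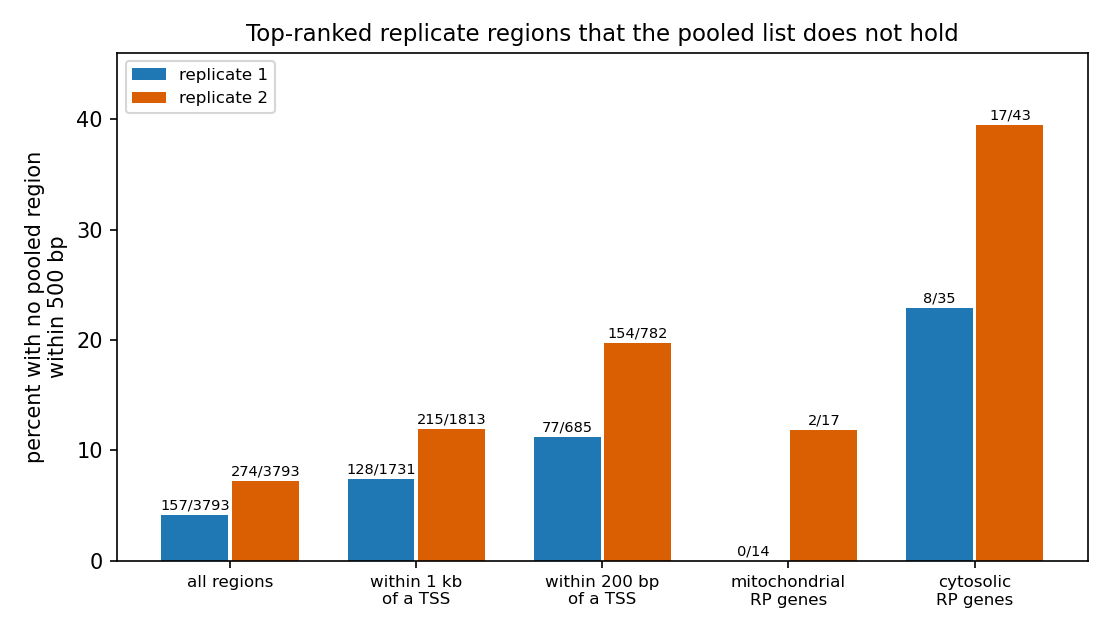
Percent of top-ranked regions of replicate 1 (blue) and replicate 2 (orange) with no pooled region within 500 bp, with counts above the bars, for all regions, regions within 1 kb and 200 bp of a protein-coding TSS, and regions at genes for mitochondrial and cytosolic ribosomal proteins (RP). The cytosolic set has the highest bars, 22.9% and 39.5%.

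No region in any of the 4 lists was found at 29 ribosomal protein genes (31.9%), against 44.8% of all protein-coding genes and 54.6% of those no longer than the longest ribosomal protein gene. For the large subunit these included RpL10Aa, RpL18, RpL22, RpL24-like, RpL26, RpL27A, RpL29, RpL3, RpL35, RpL35A, RpL36, RpL36A, RpL37-2, RpL6, RpL7A, RpLP1 and RpLP2. RpL3 is a core protein that reaches towards the peptidyl transferase centre, and RpLP1 and RpLP2 form the stalk on RpLP0, which had a peak. For the small subunit they included RpS13, RpS15Ab, RpS18, RpS19b, RpS2, RpS24, RpS28a, RpS3, RpS30 and RpS5b. Of the 29, 8 are genes of paralog sets, about the share of such genes among all members (25 of 91). A gene missing from the lists is not shown to lack binding, since depth is unknown.

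Other genes of translation were counted in the same way, beside 16.2% of all protein-coding genes. Genes for mitochondrial ribosomal proteins held peaks in 15 of 73 cases (20.5%), with IDR signals above any at the cytosolic set at mRpS10 (1376), mRpL41 (1268) and mRpL23 (841). With each summit given only to the gene of the nearest TSS, the count was 8 of 73 (11%), below the 16.3% of all protein-coding genes. Translation factors held peaks in 6 of 42 cases (14.3%), the strongest at eIF2Bbeta (1550), a subunit of the exchange factor for eIF2, eIF6 (747), which keeps the subunits apart, and eIF5B (327), which joins them. In the list of ribosome assembly genes, 2 of 32 held a peak (6.25%), but 1 of these, Rrp1 (674), is in the fly the symbol of a DNA repair enzyme. Without it the count was 1 of 31 (3.23%), Rrp40 (369), a subunit of the RNA exosome.

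Ribosome-associated proteins held peaks in 2 of 13 cases (15.4%), Srp72 (334), of the signal recognition particle, and bic (224), of the nascent polypeptide-associated complex. Of 11 known regulators of ribosomal protein genes or their mRNAs, 8 held a peak in the extended span and 6 within 1 kb of an own TSS. The shares were 72.7% and 54.5%, against 16.2% and 12.6% of all protein-coding genes. The strongest were larp (1108), which binds the pyrimidine tracts of these mRNAs, Dp1 (482), an RNA-binding protein, and M1BP (288), the factor that binds Motif 1. With each summit given only to the gene of the nearest TSS, 7 regulators held a peak. The best summits of Myc, Mnt and Trf2 lay far from their nearest own TSS (8720, 6255 and -3323 bp). Gene length was not matched for this list.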

How the data were processed

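Per the labels, tio-GFP embryos were profiled by ChIP-seq in 2 biological replicates. Per the deposited notes, each replicate list came from that replicate's alignments and 1 control, the pooled list from both, and the IDR list from these 3. Neither the aligner, the peak caller nor the IDR threshold is given in the sources used here. The deposited signal value is the authors' own, q-values were deposited as -log10 q, and another deposited column gives the summit offset. Lists on dm3 were not used.

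Summits were assigned to genes of Ensembl release 115 (BDGP6.54) with Python 3.11.15, and sequences were read from RefSeq's Release 6 genome. Summits within 100 bp were matched between lists. Counting was checked on simulated data. The genes, lists and comparisons were chosen with earlier results of these data known, so no p-value is given. Genes with an IDR peak are named, with the 6 next by pooled signal, those in no list and the 3 strongest of each other list; genes strong in a replicate list were named after their values were seen. Counts cover all 91 genes, but results of some single genes are not reported here. In the other lists, eIF5A was matched as eEF5 and 1 symbol (Tor) stayed unmatched.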

Additional observations from a re-analysis of the deposited data

How the results depend on the processing

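With the stronger 0.5 of the IDR peaks, 14 ribosomal protein genes held a peak (15.4%, against 10.9% of all protein-coding genes). Near an own TSS 15 held a summit (16.5%, against 8.5%). With each replicate list alone, 30 to 39 genes held a region (33% to 42.9%, against 16.9% to 17.8%), the higher count without replicate 1. In the extended span the range was 14 to 20 for the large subunit and 16 to 19 for the small subunit. Near an own TSS 29 to 40 genes held a region (31.9% to 44%, against 13.4% to 14.4%). Without the upstream 1 kb, 5 genes held a peak (5.49%), since most summits lie before the start. The 9.29% of all protein-coding genes in that setting is not matched for gene length. The TCT core was found at 47 genes when the 5 prime end alone was searched, at a lower share with a peak than without. Mean G+C at the summits was 39.6% in windows of 50 bp on either side and 36.8% in windows of 200 bp on either side, where promoter summits held 31.9% and 36.4%, so the gap to them closes with wider windows. Counts with 500 bp or 2 kb upstream (24 and 26), with the nearest TSS only (23) and without the pooled list (24) stayed within 1.5 times the reported 24, as did those at 2 times as many pooled regions (31). In that order the shares of ribosomal protein genes were 26.4%, 28.6%, 25.3%, 26.4% and 34.1%. The shares of all protein-coding genes were 15.3%, 17.9%, 16.3%, 14.4% and 22.8%. Among the other lists, translation factors with a peak numbered 10 without replicate 2, and mitochondrial ribosomal protein genes 8 with the nearest TSS only. Leaving Rrp1 out of the assembly list was also added after seeing the data. Beyond what the windows set, the cause was not tested. Regions missing from the pooled list kept their shares at 250 bp and 1000 bp. Among the top 1000 regions they were 5 of 14 in replicate 1 (35.7%) and 6 of 12 in replicate 2 (50%), both small counts. Over all top 1000 regions the shares were 4.2% and 7.5%, and within 200 bp of a protein-coding TSS 10.6% and 17%. These alternatives, the one without the pooled list and the one on the 5 prime end were chosen after seeing the data. No paired analysis was possible because there is 1 group. Unknown depth, unstated signal scaling and the small number of replicates limit all values.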

Other observations

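Genes other than those for cytosolic ribosomal proteins that carry a TCT core at an annotated TSS held an IDR peak in 172 of 622 cases (27.7%), close to the 26.4% of the ribosomal protein genes and above the 16.2% of all protein-coding genes. The difference was not tested, and gene length was not matched. Over all protein-coding genes, 62 of the 2013 with a top region in both replicates had no pooled region (3.08%), among them the 3 ribosomal protein genes RpS16, RpS5a and RpL19, of 24.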
